A study of Chrysemys picta and Apalone spinifera with 20 samples.

Results

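The genes described here are the 150 whose read counts varied least over embryonic development in both of 2 turtles, Chrysemys picta and Apalone spinifera. They were selected on the measured values themselves. For each entry of the count tables, the count of a library was divided by the 75th percentile of that library's column and multiplied by 1000 (a scaled count), 10 was added, and the log2 was taken (L). Of 12676 entries present in both tables, 3086 had 200 or more counts in all 20 libraries. For these, the SD of L was taken over the 10 libraries of each species, and the larger of both SDs is the stability score. The 150 lowest scores, 4.86% of the 3086, make up the set, so the scores, the SDs and the small differences between libraries given below describe how the members were chosen and carry no test.

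In Chrysemys the incubation temperature of the egg sets the sex of the embryo, with males at 26 °C and females at 31 °C, whereas sex chromosomes set it in Apalone. Eggs of both species were incubated at 26 °C or 31 °C, and the tissue sampled was the trunk at stage 9, the complex of adrenal, kidney and gonad at stages 12 and 15, and the gonad alone at stages 19 and 22. Each of the 20 combinations of species, temperature and stage is 1 library with no replicate, made from the pooled RNA of 10 Chrysemys embryos or of 5 unsexed Apalone embryos. The tissue therefore changes with the stage, and the effects of both cannot be told apart. Library totals ran from 11610098 to 24606646 counts in Chrysemys and from 5544730 to 9501484 in Apalone.

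Genes that keep a steady level across tissues and conditions serve as internal references: a measured transcript is expressed relative to them. Many such genes carry out tasks every cell has, such as making, folding and moving proteins. A steady share of the RNA pool is not the same as a steady amount per cell, since all values here are relative to the rest of the same library. In pooled tissue, fewer cells of a type and less RNA per cell cannot be told apart either.

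The score ran from 0.107 to 0.233 among the members, with a median of 0.207, against a median of 0.440 over the 3086 entries. Members just inside the boundary were WDR26 (0.232), GOLGA5 (0.233) and WDR11 (0.233), and the named entries just outside it were ABCD3 (0.234), SNAP23 (0.234) and HADHB (0.234). There is thus no gap in score at the 150th entry. The ratio of the highest to the lowest scaled count over 10 libraries ran from 1.21 to 1.83 in Chrysemys (median 1.53) and from 1.13 to 1.82 in Apalone (median 1.49). Over the 3086 entries the same ratio had a median of 2.45 in Chrysemys and 1.92 in Apalone. All 150 members stayed within a 2-fold range in both species, as did 20.4% of the 3086.

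Chrysemys gave the larger of the 2 SDs for 90 of the 150 members, and for 71.7% of the 3086 entries. The SD expected from counting read pairs alone had a median of 0.054 for the members in Chrysemys and 0.067 in Apalone. The measured SD was under 2 times that expectation for 11 members in Chrysemys and 44 in Apalone, and under it for 0 and 1. Among the 3086 entries, 0.713% in Chrysemys and 5.77% in Apalone were under 2 times their expectation, and 0.0% and 0.097% under it. The members were chosen for a small SD, so their larger share follows in part from that choice.

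**Figure D1:**
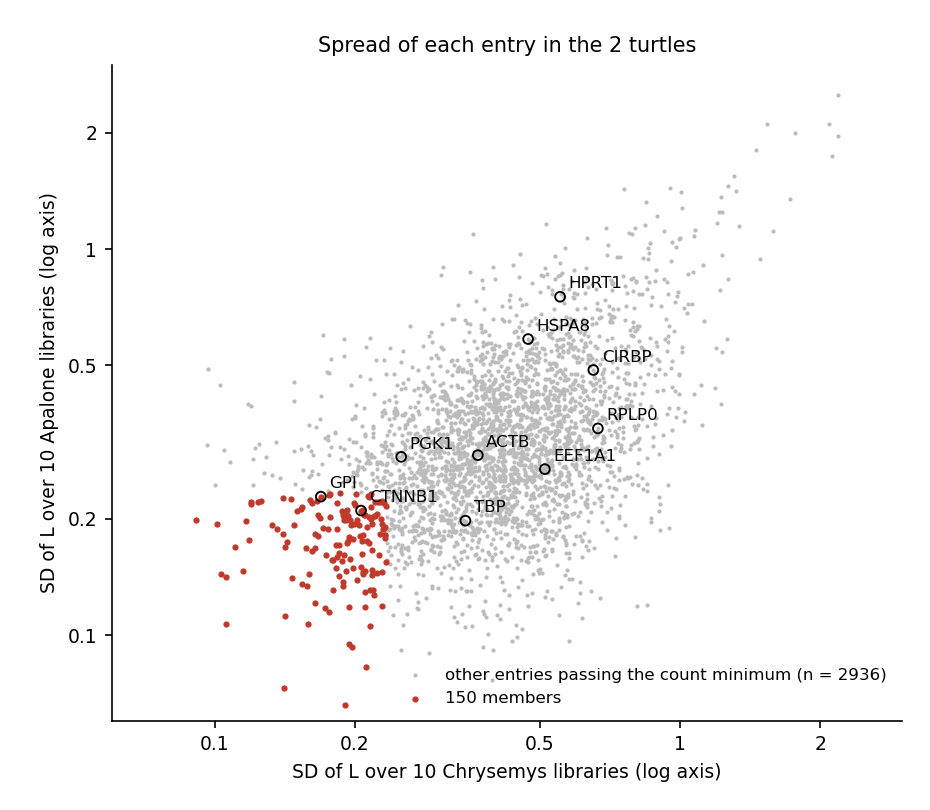
Each point is an entry with 200 or more counts in every library, placed by the SD of L over the 10 Chrysemys libraries (x) and the 10 Apalone libraries (y), both on log axes. The 150 members in red fill the corner below 0.233 on both axes, and open circles mark named genes. HPRT1, drawn although it fails the count minimum in Apalone, sits at 0.552 and 0.753.

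A symbol could be given to 108 of the members, 72.0% of them, while 73.5% of the 3086 entries had one. The 42 without a symbol are counted in every total, and 1 of them is described as a core histone macro-H2A.1-like gene. The 108 were sorted by textbook role after their names were known, so the groups are a description. Of them, 36 were sorted to the path by which proteins are made at the endoplasmic reticulum and moved through the cell. They fall in 3 groups: 13 named for the endoplasmic reticulum, 10 for Golgi traffic and vesicle coats, and 13 for endosomes, secretion and autophagy. The group named for the endoplasmic reticulum also holds proteins that act in the Golgi or the cytosol. Mitochondria and metabolism, the largest single group, gave 14, RNA processing 12, the cytoskeleton and cell adhesion 10, ubiquitin and protein turnover 10, signalling 9, and transcription and chromatin 7. A further 10 have other or little known roles. The same roles were not counted among the other named entries that passed the count minimum, so no group is shown to be over-represented.

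The lowest score of all belonged to ARCN1, the delta subunit of the COPI coat that carries proteins from the Golgi back to the endoplasmic reticulum. Its scaled count in Chrysemys had a lowest value of 7292, a median of 7906 and a highest value of 9190. In Apalone the lowest, median and highest were 11955, 13511 and 14992. The highest library was 1.26 times the lowest in Chrysemys and 1.25 times in Apalone, and the ranges of both species did not overlap.

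STT3A, a catalytic subunit of the oligosaccharyltransferase that attaches sugar chains to new proteins, came next with a score of 0.141. Its scaled counts had a lowest value of 5603, a median of 6193 and a highest value of 7894 in Chrysemys. In Apalone they were 6945, 7671 and 8014, a ratio of 1.15. The Chrysemys gonad library of 31 °C at stage 19 was its high point and the only Chrysemys library above the lower end of the Apalone range.

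RPN1 and RPN2 are 2 further subunits of the same complex and were members too. RPN1 (score 0.168) had Chrysemys values of 7327, 8184 and 10849 and Apalone values of 7354, 8449 and 11201, each the lowest, median and highest scaled count. RPN2 (score 0.205) had 7417, 8857 and 11645 in Chrysemys and 7229, 8349 and 10753 in Apalone. Both genes overlapped between the species, and both were lowest in Chrysemys at stage 12, RPN1 at 31 °C and RPN2 at 26 °C.

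Most other members of the endoplasmic reticulum group fold or modify proteins. MBTPS1, the site-1 protease that activates membrane-bound transcription factors, had scaled counts of 2264, 2560 and 2995 in Chrysemys (lowest, median, highest) and 4220, 5102 and 5979 in Apalone. NCLN, nicalin, kept within a ratio of 1.29 in Chrysemys and 1.57 in Apalone. The chaperone CALR and the disulphide isomerase PDIA3 were among the 5 named members with the largest counts and are described below with the comparison of temperatures. PIGT (GPI anchor transfer), B4GALT1 (a galactosyltransferase), NGLY1 (removal of sugar chains), DNAJB12 (a co-chaperone), RNF185 (a ubiquitin ligase) and GPAT4 (glycerolipid synthesis) complete this group, with scores up to 0.232.

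In the Golgi group, COG5 of the tethering complex COG had a score of 0.159 and scaled counts of 745, 851 and 1005 in Chrysemys and 1201, 1463 and 1631 in Apalone. SEC24B, a cargo adaptor of the COPII coat, had a score of 0.185, and COPG1, the gamma subunit of the COPI coat, 0.226. COPG1 was low in a single Chrysemys library, 26 °C at stage 22, at 3406 against a median of 5480. TMED10, TFG, ARFGAP3, ARFGEF1, CLINT1 and GOLGA5 also act in this traffic.

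VAMP3, a SNARE protein of recycling endosomes, was the steadiest member of the endosome group, with a score of 0.146. Its scaled counts were 344, 419 and 443 in Chrysemys (lowest, median, highest) and 1399, 1650 and 1986 in Apalone, which do not overlap. RAB10, a small GTPase of vesicle transport, had a score of 0.182 and a ratio of 1.58 in Chrysemys and 1.40 in Apalone. GDI2, which recycles Rab proteins, was among the members with the largest counts, with 8339, 10319 and 11444 in Chrysemys and 20296, 26066 and 30724 in Apalone. EXOC7 of the exocyst and RABEP1, an effector of the endosomal Rab proteins in mammals, belong here as well.

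**Figure D2:**
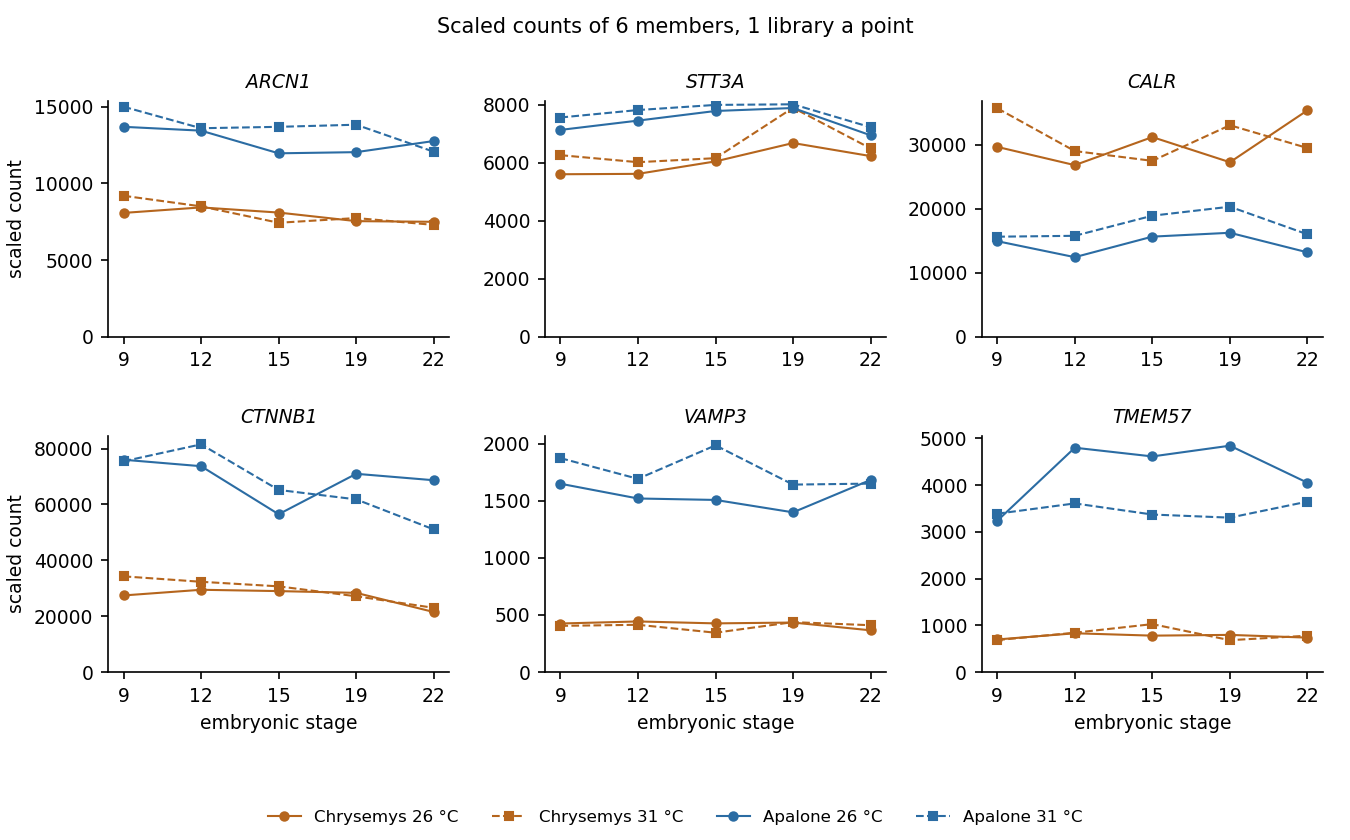
Scaled counts (y, from 0) of 6 members at the 5 stages (x), with 1 library per point; brown marks Chrysemys, blue Apalone, solid lines 26 °C and dashed lines 31 °C. ARCN1, CTNNB1, VAMP3 and TMEM57 lie higher in Apalone without overlap, and CALR lies lower. Within a species the points of a gene differ by a ratio of 1.63 at most.

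Outside the secretory path, SMARCA1, an ISWI chromatin remodeller, had a score of 0.154, with scaled counts of 3833, 4619 and 5298 in Chrysemys and 6752, 7886 and 9331 in Apalone. SZRD1 (score 0.144), whose function is little known, had an SD of 0.103 in Chrysemys, where it ran from 1144 to 1389 with a median of 1249. IKBKB (score 0.158), a kinase that activates NF-kappa-B, had 1689, 1802 and 2469 in Chrysemys and 1130, 1258 and 1437 in Apalone. Its high Chrysemys value came from the 26 °C library at stage 12 alone, and the species did not overlap.

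Splicing and RNA handling was represented by SNW1 (0.177), AKAP8L (0.170), RBM39 (0.183), SLU7 (0.198) and PRPF18 (0.225), where the values in brackets are scores. YTHDF3, which binds methylated adenosine in RNA, had the smallest SD of any named member in Apalone, 0.066, with scaled counts of 4645, 4990 and 5227. In Chrysemys its SD was 0.190, and 92.9% of its sum of squares lay between stages, the largest such share of the 150. So the score of 1 gene can rest on quite different spreads in the 2 turtles.

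The remaining members of the 20 lowest-scoring named genes were TBC1D9B (0.157), CNN3, an actin-binding calponin (0.165), ABI1, which acts in actin branching (0.169), PIAS2, a SUMO ligase (0.176), TTC17 (0.178), WDR37 (0.179), DLG1, a cell polarity scaffold (0.179), and SLC25A24, a mitochondrial carrier (0.181). SLC25A24 had the smallest stage share of the 150 in Chrysemys, 2.74% of its sum of squares. By contrast UBQLN1, a shuttle of the proteasome, had the smallest Chrysemys SD among the named members (0.101), while its Apalone SD of 0.194 set its rank at 49.

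Lists of genes by shared function put this membership beside other groups that are often thought of as constant. Of 49 cytosolic ribosomal proteins that passed the count minimum, 0 were members, and their median score was 0.656, above the median of 0.440 for all 3086. The proteasome gave 0 of 21 (median score 0.535), the respiratory chain 0 of 18 (0.503), the chaperonin 0 of 5 (0.481), hnRNPs 0 of 12 (0.446), nuclear transport 0 of 21 (0.397), tRNA synthetases 0 of 13 (0.357) and RNA decay 0 of 8 (0.375). Vesicle coats and trafficking gave 5 of 59 (COPG1, EXOC7, RAB10, SEC24B and VAMP3), with a median score of 0.357.

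Protein phosphatases gave 2 of 15, PPP4R3A (0.205) and PPP6C (0.215), and ubiquitin enzymes 2 of 42, USP47 (0.183) and UBE2Q1 (0.220). Single members came from the spliceosome (PRPF18 of 34), RNA polymerase II and Mediator (MED10 of 11), chromatin remodelling (SMARCA1 of 22) and the mitochondrial ribosome (MRPS5 of 13). The initiation factor list, taken by symbol, gave EIF2AK4 of 23, which is a kinase that blocks initiation and not a factor. Heat- and cold-responsive genes gave 0 of 11 (median score 0.413). The background share is 4.86%, and at such counts no list is shown to differ from it.

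Of 20 entries on a list of sex and gonad genes, 1 alone passed the count minimum, and it was a member: CTNNB1, beta-catenin, which links cadherins to actin and carries the Wnt signal, known in mammals for its part in ovary development. Its scaled counts in Chrysemys were 27410, 29443, 28972, 28337 and 21481 at 26 °C, in the order of stages 9, 12, 15, 19 and 22. At 31 °C they were 34253, 32305, 30669, 27111 and 22976. In Apalone the lowest, median and highest of the 10 libraries were 51049, 69816 and 81517. CTNNB1 was lowest at stage 22 in Chrysemys at both temperatures, and 81.5% of its sum of squares there lay between stages. Its score of 0.210 gave it rank 86.

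The 14 common reference genes that passed the minimum had a median score of 0.39, against 0.44 for all 3086 entries. Of the 14, 1 was a member (7.14%, background 4.86%): GPI, the glycolytic glucose-6-phosphate isomerase, at rank 131. Its scaled counts were 6889, 8207 and 9558 in Chrysemys (lowest, median, highest) and 8741, 11548 and 15454 in Apalone. CHMP2A ranked 371 of 3086, SDHA 373, PGK1 438, TBP 834, ACTB 975, EEF1A1 2005 and RPLP0 2670. TBP and EEF1A1 illustrate why both species count: TBP had an SD of 0.198 in Apalone against 0.346 in Chrysemys, and EEF1A1 0.269 against 0.512.

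HPRT1, a purine salvage enzyme that the methods of the study name as a housekeeping gene, failed the count minimum with 150 counts in 1 Apalone library. Its scaled count ran from 918 to 3049 in Chrysemys, a ratio of 3.32, and from 315 to 1494 in Apalone, a ratio of 4.74. In both turtles the low end was a 31 °C library, stage 19 in Chrysemys and stage 9 in Apalone. The 31 °C library was the lower one at every stage in Chrysemys. In Apalone it was lower at every stage but stage 12, with 411 at 26 °C and 449 at 31 °C. Dividing by HPRT1 in place of the 75th percentile raised the members' median ratio of highest to lowest library from 1.53 to 3.29 in Chrysemys and from 1.49 to 5.06 in Apalone. Dividing by ACTB gave 2.83 and 2.12. Over the 3086 entries the median ratio was 4.11 and 5.44 with HPRT1 and 3.75 and 2.39 with ACTB, against 2.45 and 1.92 with the 75th percentile. The members were chosen for their small spread under the 75th percentile, so a rise under another divisor follows in part from that choice. The study describes HPRT1 as constitutively expressed, and combined it with a second housekeeping gene and upper-quartile scaling. Division by HPRT1 alone is therefore not its procedure. The second housekeeping gene was not analysed here.

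**Figure D3:**
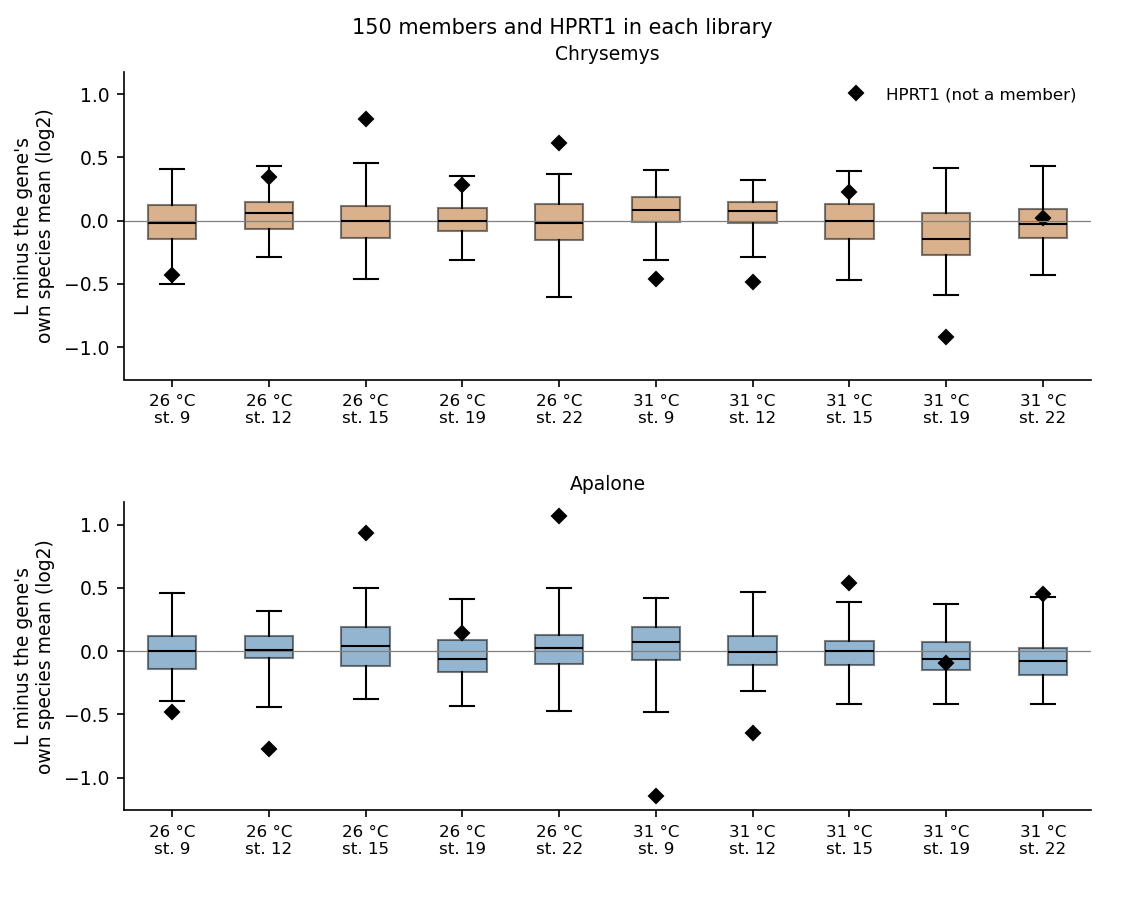
For each library (x), the box and whiskers show the 150 members' L minus each gene's own mean in that species (y, log2): median, quartiles, lowest and highest. Diamonds mark HPRT1, which lies outside the members' whole range in 5 Chrysemys and 8 Apalone libraries.

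Libraries differed little in the members' typical level, as the selection requires. The median deviation from a gene's own mean lay between -0.03 and 0.08 in 9 of the 10 Chrysemys libraries and between -0.08 and 0.07 in Apalone. The exception was the Chrysemys gonad library of 31 °C at stage 19, at -0.15, where only 41 members were above their own mean and 48 had their lowest value. The median of all 3086 entries in that library was lower still, at -0.20. Members took up 1.98% to 2.73% of all counts in Chrysemys and 3.08% to 3.49% in Apalone.

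The members' median level moved little between tissues. Gonads (stages 19 and 22) against complexes (stages 12 and 15) gave a median difference of L of -0.05 in Chrysemys and -0.06 in Apalone over the members, and -0.21 and -0.08 over the 3086 entries. ITGB1, an integrin that anchors cells to matrix, was higher in gonads by 0.36 in Chrysemys and 0.32 in Apalone. MED10, a Mediator subunit, was lower there by values of -0.41 and -0.23.

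Markers of some other cell types also differed between these tissues, and none of those found was at 0 in all complex or all gonad libraries of a species. In the Apalone trunks, 1 of 4 Sertoli cell markers was at 0 in all libraries. Skeletal muscle markers (5 of 7 found) had summed scaled counts of 7700 to 17735 in the Chrysemys complexes and 1922 to 24388 in the gonads, and of 1008 to 11227 and 2023 to 115752 in Apalone. The muscle ranges of both tissues overlapped in each turtle. Neuron markers (3 of 5 found) ran from 10997 to 17080 in the Chrysemys complexes and from 779 to 5032 in the gonads, and in Apalone from 2269 to 16744 and from 1293 to 2149. They were thus lower in the gonads of both turtles without overlap. Kidney markers (2 of 5 found) ran from 683 to 2496 in the Chrysemys complexes and from 5768 to 10736 in the gonads, which is higher in the tissue labelled as gonad alone. In Apalone they ran from 173 to 418 and from 127 to 495, which overlap. Complex and gonad values of the other marker sets are not given here. The part of these cell types in the members' spread was not tested.

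Between stages lay a median of 52.7% of a member's sum of squares of L in Chrysemys and 60.4% in Apalone. For the 3086 entries these shares were 73.3% and 72.4%. Temperature, as the mean over stages, took 5.42% and 6.85% in the members, against 3.11% and 7.47% for the 3086 entries. The rest took 33.2% and 27.0% in the members, against 20.1% and 15.2%. Stage holds 4 of the 9 degrees of freedom among 10 libraries, 44.4%, the share it would take on average in a gene with no difference between stages. Over 50% lay between stages for 83 of 150 members in Chrysemys and 101 in Apalone, and for 81.6% and 78.9% of the 3086 entries.

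The temperature comparison asks which genes differ between embryos incubated at 26 °C and 31 °C. Since the rule drew on these same values, the members' results are read only against the share called over all entries. By a two-sided Fisher's exact test of the 2 libraries of a stage, with an adjusted p under 1e-10 (the threshold of the study), 40 of the 150 members were called at stage 9 in Chrysemys, where 25.3% of all entries tested were called. Stage 12 had 13 members called (background 13.0%), stage 15 had 25 (18.0%), stage 19 had 39 (28.6%) and stage 22 had 28 (23.4%). In Apalone, 11 members were called for stage 9 (background 4.53%), 13 for stage 12 (5.38%), 15 for stage 15 (8.49%), 14 for stage 19 (11.2%) and 20 for stage 22 (11.1%).

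Among the 3086 entries passing the count minimum, 33.4% to 53.5% were called per stage in Chrysemys and 15.3% to 26.9% in Apalone. The test compares 2 libraries and counts each read pair as 2 observations, so small differences in deep genes pass it. The called members differed by a median of 0.23 to 0.46 on the log2 scale, depending on the stage, in Chrysemys, and 0.29 to 0.40 in Apalone. With each read pair counted once, the members called fell to between 4 and 19 per stage in Chrysemys and between 1 and 4 in Apalone. Of the 150, 51 were called at no stage in either turtle, and their median scaled count over 20 libraries was 1266, against 5259 for the 30 called at 3 or more of the 10 comparisons. The share over all entries is not given for these counts or for read pairs counted once. They therefore describe the members only.

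CALR, a calcium-binding chaperone of the endoplasmic reticulum, was called most often, at 9 of 10 comparisons. Its Chrysemys values at 26 °C were 29681, 26829, 31213, 27283 and 35398 from stage 9 to stage 22, and at 31 °C 35718, 29028, 27499, 33065 and 29500. The warm library was higher at 3 stages and lower at 2, so the Chrysemys calls do not share a direction. Its Apalone values, again from stage 9 to stage 22, read 14949, 12448, 15657, 16259 and 13201 in the cool libraries and 15647, 15786, 18929, 20335 and 16015 in the warm ones. There the warm library was higher at all 5 stages, by 0.07 to 0.34 on the log2 scale, and 4 of these passed.

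PDIA3, a partner of CALR in folding glycoproteins, was called at 7 comparisons, and CTNNB1, GPI and ITGB1 at 6 each. The calls for CTNNB1 in Chrysemys were both toward 31 °C, at stage 9 (log2 ratio 0.32) and stage 12 (0.13). In Apalone it was called higher at 31 °C at stages 12 and 15 (0.15 and 0.21) and lower at stages 19 and 22 (-0.20 and -0.43). All 5 of these genes have large counts, and a log2 ratio of 0.11 (CALR at stage 12 in Chrysemys) was enough to pass the threshold.

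**Figure D4:**
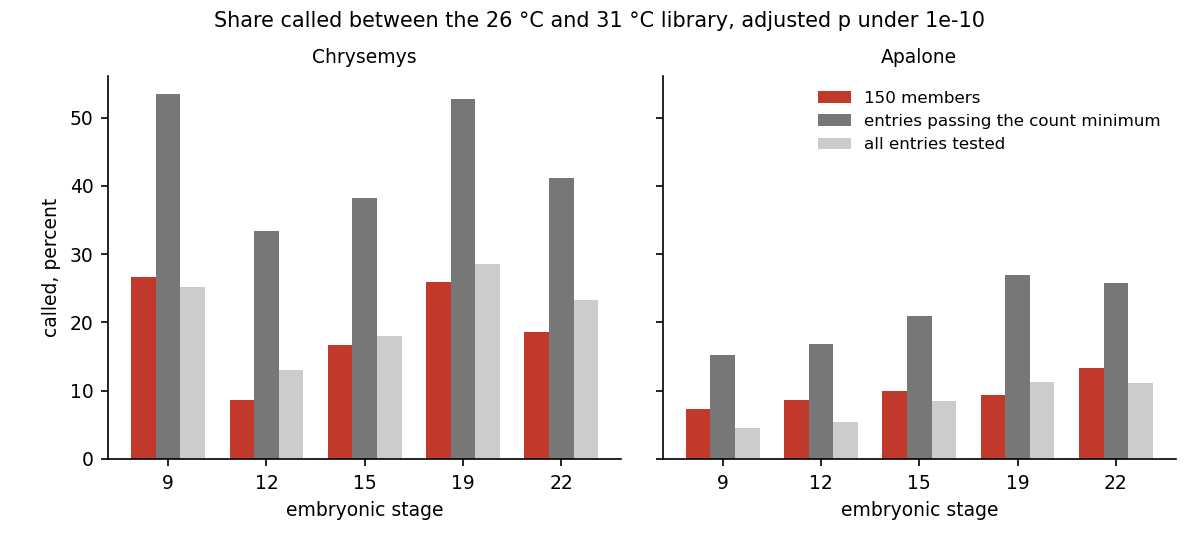
Bars give the percent called between the 26 °C and 31 °C library of a stage (x) for the 150 members, the 3086 entries passing the count minimum and all entries tested, from 0. The members' bars stand below those of the 3086 at every stage and near those of all entries, with 26.7% of members called at stage 9 in Chrysemys.

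When the 5 stages stood as repeats of the temperature difference (edgeR's quasi-likelihood test with stage as a block, adjusted p under 0.05), 0 of 150 members were called in Chrysemys, where 0.0% of 12168 entries were. No member had an unadjusted p under 0.05 there, against 781 of all entries (6.42%), and DESeq2 called 0 members of 48 entries called in all. In Apalone 0 members were called, against 0.0205% of 9768 entries, with 6 members and 16.6% of all entries at an unadjusted p under 0.05. DESeq2 called 0 members there of 244 entries called in all. The 6 were MED10, HABP4, CALR, TMEM57, NFS1 and an unnamed entry. Their number became 22 without stage 9, where 23.9% of all entries had such a p. It was 3 without stage 15 (9.83% of all entries). Without stage 12, 19 or 22 it was 2 (14.8%, 9.68% and 10.9%). The members' fitted log2 ratios ran from -0.33 to 0.28 in Chrysemys and from -0.34 to 0.25 in Apalone.

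A shift in one direction at all 5 stages was seen for 10 members in Chrysemys, 5 higher and 5 lower at 31 °C, and for 18 in Apalone, 5 higher and 13 lower. STT3A and 1 unnamed entry were higher at 31 °C at every stage in both turtles. The share of the 3086 entries that kept one direction in both turtles is not given. By edgeR's quasi-likelihood test with stage as a block, STT3A had an unadjusted p of 0.594 in Chrysemys and 0.635 in Apalone. For STT3A the log2 differences from stage 9 to stage 22 read 0.16, 0.10, 0.03, 0.24 and 0.06 in Chrysemys, while in Apalone they read 0.08, 0.07, 0.04, 0.02 and 0.06. LRWD1, which associates with the origin recognition complex, was lower at 31 °C at all 5 stages in Chrysemys, by values of -0.18 to -0.58, and MED10 at all 5 in Apalone, from -0.13 to -0.69. Over the 3086 entries, 5.80% kept one direction in Chrysemys and 18.4% in Apalone, against 6.67% and 12.0% of the members.

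The stability score looked within each species and did not use the level of a member in Apalone relative to Chrysemys. The count minimum, however, was set on raw counts in every library, and all Apalone libraries had smaller totals than the Chrysemys libraries. It can therefore favour entries that are relatively high in Apalone, so the species comparison is not independent of the selection. The part of the count minimum in the differences between the turtles was not tested. With edgeR's quasi-likelihood test over all 20 libraries and stage and temperature as a block, 136 of the 150 members differed between the turtles at an adjusted p under 0.05, where 76.2% of 11025 entries did. Of these, 119 were higher in Apalone (background 34.7%) and 17 lower (41.4%). A log2 difference over 1 in size with the same adjusted p was found for 64 members, 42.7% of them (background 53.9%). Of the 3086 entries, 79.8% were called, 66.3% as higher in Apalone, and 41.4% passed a log2 difference of 1. The members' small spread within species lowers their p-values, so the size of the differences says more than the calls.

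The median log2 difference of the members was 0.86 toward Apalone, against -0.14 for all entries tested and 0.69 for the 3086. The shift toward Apalone was thus present over all entries that pass the count minimum. In each of the 10 pairs of libraries of the same stage and temperature, 118 to 125 of the 150 members had the higher L in Apalone. The pair medians ran from 0.61 to 0.77. By the mean of L over the libraries of a species, 83.3% of the members were higher in Apalone, as were 73.6% of the 3086 entries. When library sizes were set from the members themselves, the split of the called members became 56 higher and 58 lower, near even by the construction of that setting. Reads of Apalone were mapped to Chrysemys genes, and a difference in level cannot be told apart from a difference in mapping.

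The largest difference toward Apalone was that of TMEM57, named MACO1 in the RefSeq table, an endoplasmic reticulum protein also called macoilin. Its scaled counts were 680, 777 and 1024 in Chrysemys (lowest, median, highest) and 3234, 3626 and 4842 in Apalone. The log2 difference was 2.45 (adjusted p 2.8e-10 by edgeR's quasi-likelihood test), higher in 10 of 10 pairs. Among the named members NCKAP1, a subunit of the WAVE complex that directs actin branching, followed at 2.33, with 2680, 3633 and 4504 in Chrysemys and 13718, 16181 and 18696 in Apalone. RMND5A (2.19), DYRK1A (2.18) and VAMP3 (2.16) were next of those with a symbol, a ubiquitin ligase subunit, a protein kinase and the SNARE named above. None of the 5 overlapped between the species. This follows in part from picking the largest differences, and in part from the rule, which keeps a member's range within a species small. The share of all entries or of all members without overlap is not given, here or for the genes described above, so the lack of overlap is not particular to these genes.

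The largest difference toward Chrysemys was that of LRWD1, with scaled counts of 2862, 4073 and 4745 there and 1014, 1236 and 1338 in Apalone. The log2 difference was -1.59 (adjusted p 7.25e-09 by the same edgeR test), lower in Apalone in 10 of 10 pairs. BSDC1 (-1.22), MRRF, which recycles mitochondrial ribosomes (-1.18), CALR (-0.80) and TMED10, a cargo receptor between the endoplasmic reticulum and the Golgi (-0.71), came next among the named members, and unnamed members lay between them. All of these named genes kept their direction and their call under the 10 alternatives run. This follows in part from picking the largest differences among genes chosen for a small spread within species.

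**Figure D5:**
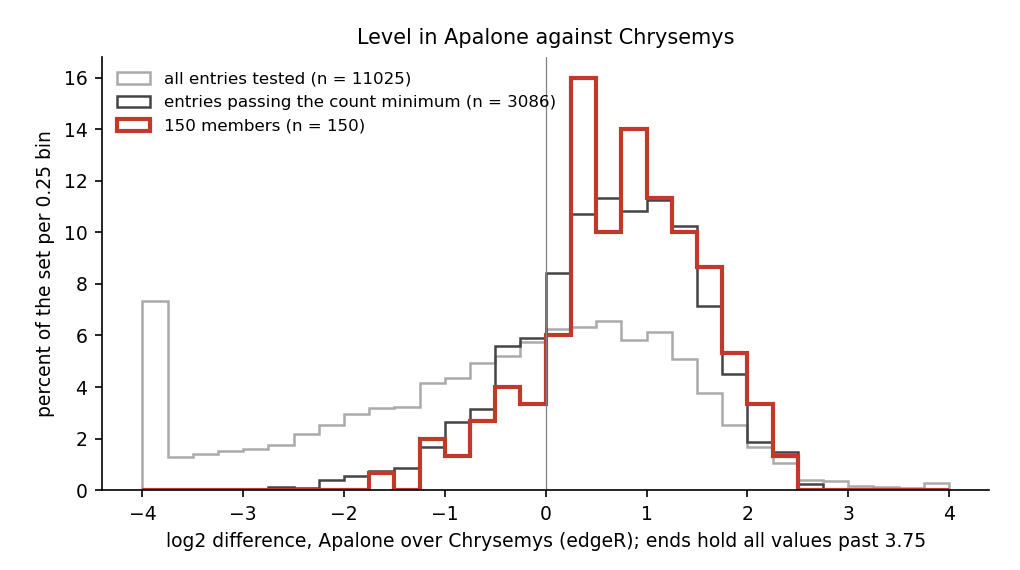
Percent of each set (y) per bin of 0.25 of the edgeR log2 difference, Apalone over Chrysemys (x), for all 11025 entries tested, the 3086 passing the count minimum and the 150 members. The members' median lies at 0.86 and their values run from -1.59 to 2.45.

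By role, the median log2 difference was smallest in the group named for the endoplasmic reticulum, 0.35 over 13 genes, and in mitochondria and metabolism, 0.43 over 14. TMEM57, with 2.45, was sorted with the other or little known roles and not with the endoplasmic reticulum. The median was largest in ubiquitin and protein turnover, 1.42 over 10 genes, and in signalling, 1.40 over 9. All 10 genes of ubiquitin and protein turnover were higher in Apalone, as were all 12 of RNA processing. By the mean of L, 83.3% of the members and 73.6% of the entries passing the count minimum were higher there. A group with every gene higher is thus not particular to ubiquitin and protein turnover. The groups were not chosen before their values were known, and their difference was not tested. SPOP and ARIH1, both of ubiquitin ligases, were 3.53 and 4.15 times higher in Apalone, while IKBKB in the signalling group was 1.33 times higher in Chrysemys.

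The order of genes was taken from a RefSeq annotation of another assembly, in which 89 members could be placed. None was immediately beside another member, and 10 of the 89 (11.2%) had one within 5 genes, as did 4.22% of 1801 other entries passing the count minimum with the position known. The pairs were TOMM70 and TFG, NFS1 and RBM39, RPN2 and PIGT, RPN1 and COPG1, and DNAJB12 and MCU. This count was not tested.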

How the data were processed

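RNA-seq of 20 libraries, 10 per species, was analysed from the deposited raw counts per gene. The authors assembled the transcripts of each species de novo and matched them to annotated Chrysemys genes with GMAP. They then mapped reads of both turtles back to these genes with GSNAP and counted them without strand, so overlapping genes are not separated. The submitters' processing notes name Trimmomatic 0.27 and HTSeq. Every deposited count is even, so each read pair appears to add 2. Scaling to the column's 75th percentile, the pseudocount of 10 and the minimum of 200 counts follow the rule in the opening. Symbols came from the supplementary descriptions and a RefSeq gene table (ASM1138683v2), used for names and neighbours only; 108 of 150 members matched. No sequences are printed.

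The members, gene lists, role groups and tests were chosen with earlier results of these data known. Named are the 20 lowest scores, the 5 highest and lowest counts, members on fixed lists, the 5 largest species differences each way among members with a symbol, the genes called most often, and those at the boundary. The lowest counts were those of ZSWIM3, CWF19L2, PTPN12, SRBD1 and TTC37.

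Tests were Fisher's exact test with Benjamini-Hochberg adjustment over all entries, and quasi-likelihood fits in edgeR 4.0.16 (TMM, filter on low counts), with DESeq2 1.42.0 as an alternative, in R 4.3.3 and Python 3.11.15 (scipy 1.17.1). The score, Fisher's test and the edgeR fits were also run on simulated data, and the outcomes are not given here. Counts are not divided by length, so levels are not compared between genes, and the counting SD covers counting error only.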

Additional observations from a re-analysis of the deposited data

How the results depend on the processing

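Membership depends on the scaling and on which libraries are used. Of the 150 members, 107 to 148 stayed among the 150 lowest scores under 10 of the 14 planned settings that keep all libraries, 68 with library totals, 88 with the Chrysemys SD alone, 44 with the Apalone SD alone and 38 with a minimum of 1000 counts, which no more than 38 members reach. Leaving out 1 library kept 100 to 144, the fewest without the Chrysemys library of 31 °C at stage 19, and leaving out 1 stage kept 95 to 124. ARCN1, STT3A and MBTPS1 are among the 4 kept under all 39 settings. With 2 divisors chosen after seeing the data, 0 members stayed with HPRT1 and 18 with ACTB; the cause was not tested.

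Fisher calls of members depend on the unit of counting and the threshold. In the order of stages 9, 12, 15, 19 and 22, each read pair counted once gave 19, 4, 8, 17 and 15 calls in Chrysemys and 1, 3, 4, 4 and 3 in Apalone, from halved counts. An adjusted p under 0.05 gave 113, 71, 85, 116 and 97 in Chrysemys and 82, 66, 65, 85 and 80 in Apalone. Library totals gave 25, 94 and 72 at Chrysemys stages 12, 19 and 22. The share of all entries called is not given for these settings, so the counts describe the members only. No member was called for temperature under any of the 11 alternatives per species, including no stage block. Over all entries, 0 to 48 were called per alternative in Chrysemys and 0 to 244 in Apalone, the most with DESeq2. The members were chosen for small differences between these libraries, so their count describes them only.

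The species difference was called for 114 to 140 members over 10 alternatives, and for 7905 to 9324 of the 11000 to 12676 entries tested. The 114 of 150 members came with library sizes set from the members, where 8466 of 11025 entries were called. The members' median log2 difference was 0.78 with upper-quartile factors and 0.038 with library sizes set from the members, where 31 passed a log2 difference of 1, by the construction of that setting. Leaving out a stage gave medians of 0.83 to 0.91. Each group has a single library, so no replicate numbers pair the libraries. Stage was the block for temperature, and stage with temperature for species. Without the block, 0 members and 0 of all entries were called for temperature in either turtle. For species, 136 members and 7905 of 11025 entries were called without it. The promoter motif comparison was not run, since no sequences were used here. With 1 library per condition, the spread between pools is not measured at any depth.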
